A study of Mus musculus with 6 samples.

Results

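Granins and prohormone processing enzymes were followed in RNA sequencing libraries of pancreatic islets, the hormone-secreting cell clusters of the pancreas. The set held 10 genes, chosen by symbol: the granin family genes Chga, Chgb, Scg2, Scg3, Scg5 and Vgf, the convertases Pcsk1 and Pcsk2, the convertase inhibitor Pcsk1n and the carboxypeptidase Cpe. Each of the 10 was on exactly 1 of the 23179 rows of every table, and all 10 had a mean of at least 1 FPKM, the filter that 11669 rows passed. FPKM are fragment counts scaled for transcript length and a measure of library size, so levels can be compared between genes. In GENCODE M21 (GRCm38) all 10 are protein coding, and those called in the comparison below are Pcsk1 (chr13:75089826-75134861, plus strand), Pcsk2 (chr2:143546156-143816285, plus), Pcsk1n (chrX:7919822-7924410, plus), Chgb (chr2:132781278-132795079, plus) and Vgf (chr5:137026392-137033351, plus). The RefSeq starts of Pcsk1, Pcsk2 and Chgb, used for the promoters, differ from these.

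All mice were C57BL/6J males, 10 to 14 weeks of age, and either wild type (WT, 3 libraries) or homozygous for loss of the short-chain fatty acid receptor gene Ffar3 (Ffar3-/-, called KO, 3 libraries). Each library was made from total RNA of whole islets, selected from a pool of the islets of 2 pancreata, so it holds all islet cell types and any exocrine tissue carried along. The sources used here do not say how the allele was made, nor the dates or batches of isolation and sequencing, and a difference in any of these cannot be told apart from genotype. No treatment is given.

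Peptide hormones are made as larger precursors that are sorted, with granins, into dense-core secretory granules. There Pcsk1 and Pcsk2 cut the precursors after pairs of basic residues and Cpe removes the basic residues left at the new ends. In islets proinsulin is matured by both convertases in beta cells, whereas Pcsk2 makes glucagon in alpha cells. Scg5 (also called 7B2) is the chaperone that Pcsk2 needs, Pcsk1n (proSAAS) inhibits Pcsk1, and Chga, Chgb, Scg2 and Scg3 help to form and load the granule, while Vgf is the precursor of several secreted peptides.

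Ffar3 itself was at 4.69, 5.26 and 6.68 FPKM in WT replicates 1, 2 and 3, while KO replicates 1 and 2 listed it at 0 and KO replicate 3 had 0.105 FPKM, which matched the labels. KO replicates 2 and 3 stood apart. The summed level of 27 acinar marker genes (digestive enzymes of the exocrine pancreas) was 28809 to 45149 FPKM in WT and 26889, 269197 and 573457 FPKM in the KO replicates in order, or 6.45%, 38.6% and 54.3% of their FPKM sums. Of these 27 genes, 1 was called higher and 0 lower, and 2 were higher and 1 lower at an unadjusted p under 0.05 in limma. The insulin gene Ins2, a defining beta cell marker, was listed at 0 in all 6 libraries and Ins1 in 4 of them, so insulin could not be described. Total read depth is unknown.

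Promoter sequences of 8 of the 10 genes were in the RefSeq table used (GRCm38.p6); Vgf and Cpe were not matched. The stretches below end at the base before the gene start in RefSeq and are shown because these genes share a short element there, the cAMP response element (CRE), to which CREB family factors are known to bind. Capitals mark TGACG, a shorter form of the CRE, on either strand; TGACGTCA is the full, palindromic CRE, made of 2 overlapping TGACG copies, each on its own strand. Shown are the 120 bases before the start of Scg2 (chr1:79440027-79440146, minus strand), Chgb (chr2:132781522-132781641, plus strand), Pcsk1 (chr13:75089737-75089856, plus strand) and Chga (chr12:102554821-102554940, plus strand), each in the direction of the gene.
Scg2: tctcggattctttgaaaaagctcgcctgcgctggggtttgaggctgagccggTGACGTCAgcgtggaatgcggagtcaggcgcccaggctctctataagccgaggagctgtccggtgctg
Chgb: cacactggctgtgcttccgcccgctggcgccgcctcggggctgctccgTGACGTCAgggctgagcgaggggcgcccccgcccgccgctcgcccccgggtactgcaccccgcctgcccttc
Pcsk1: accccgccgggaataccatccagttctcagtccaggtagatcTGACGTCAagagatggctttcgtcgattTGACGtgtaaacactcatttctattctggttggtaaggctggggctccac
Chga: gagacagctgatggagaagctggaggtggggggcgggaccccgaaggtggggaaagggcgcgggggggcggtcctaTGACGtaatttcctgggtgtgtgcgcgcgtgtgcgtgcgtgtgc

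In windows of 300 bases, 250 before and 50 after the start, the full CRE was found in 3 of the 8 genes, against 1.79% of all 32851 promoters. Its first base lay 68 bases before the start in Scg2, 72 in Chgb and 78 in Pcsk1. The short form TGACG, searched on both strands and including those inside a full CRE, was found in 7 of 8, against 20.8% of all promoters. It lay 44 bases before the start in Chga, and Pcsk1 had a further copy 50 bases before the start. In Scg3 and Pcsk2 TGACG lay 30 and 34 bases before the start. In Pcsk1n neither form was found in the window. The GC box GGGCGG, on either strand, was in 6 of 8, against 35.7% of all promoters. A match is a description of the letters only, and binding was not measured.

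The 10 genes spanned a wide range of levels in WT islets. Chga, the acidic granin that drives granule formation, had the highest level, at 6829.8 ± 417 FPKM (mean ± SD, n = 3), and ranked 16 of 23179 rows by its mean over all libraries. Scg2 (2535 ± 44.8 FPKM) and Cpe (2361 ± 32.7) followed and ranked 28 and 29, and the others ranked from 54 (Pcsk2) to 2448 (Vgf). Next came Pcsk2 (898 ± 18.5), Scg3 (656 ± 20.7), Scg5 (646 ± 6.16), Pcsk1n (502 ± 17.2) and Chgb (474 ± 16.9). Pcsk1 was at 181 ± 4.32 FPKM, and Vgf was the lowest at 19.8 ± 2.85. The level of Chga was 344 times that of Vgf. Neighbours in this order did not overlap in the WT libraries except Scg3 with Scg5 and Pcsk1n with Chgb. In the KO libraries Scg2 with Cpe and Pcsk2 with Scg3 overlapped as well. The WT libraries were close to each other, with a coefficient of variation under 10% for 9 of the 10 genes, from 0.954% for Scg5 upward, and 14.4% for Vgf. In KO it ran from 12.3% for Pcsk1 to 22.9% for Vgf.

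Against WT, transcripts of both convertases, of Pcsk1n and of Chgb were lower in KO and Vgf was higher, but with libraries scaled to equal sums of other endocrine genes (endocrine scaling) none of the 4 lower calls was kept (log2 differences of -0.0068 for Pcsk2, -0.0459 for Pcsk1n, 0.08 for Pcsk1 and 0.09 for Chgb), while that of Vgf was. All 11669 genes were fitted with limma on log2(FPKM + 1), p-values were adjusted by the Benjamini-Hochberg method and called under 0.05, and 4 of the 10 genes were called lower, 1 was called higher and 5 were not called. Over all tested genes 39.9% were called, 19.6% lower and 20.3% higher (2289 and 2368 genes), so the count of genes called lower was larger in share than the background and that of genes called higher was not. Scaling by equal sums outside the acinar markers changed that split to 1800 lower and 1226 higher. The median log2 difference of the 10 genes was -0.29, against -0.01 for all tested genes (0.17 against 0.40 with endocrine scaling). All 3 KO libraries lay below all 3 WT libraries for 6 of the 10 genes, against 28.5% of tested genes, and above them for 1, against 27.8%. A lower level in bulk islets cannot be told apart from fewer endocrine cells in the RNA.

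**Figure D1:**
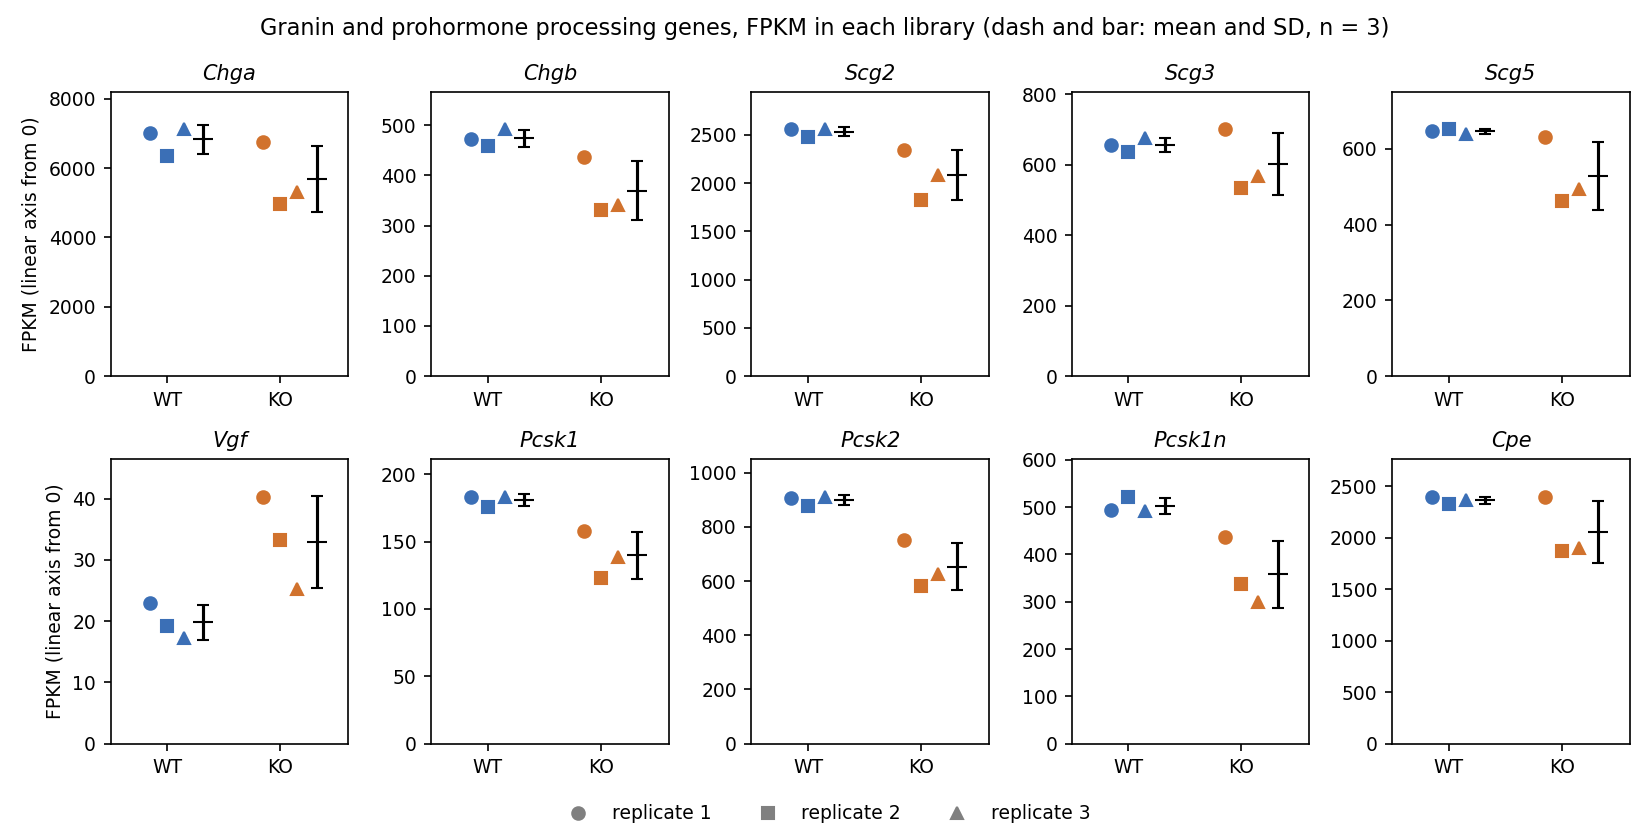
FPKM of the 10 genes in each library (linear axes from 0; circle, square and triangle for replicates 1, 2 and 3; dash and bar for mean and SD, n = 3 per group). KO replicate 1 is the highest KO library in every panel, and only Vgf has all 3 KO libraries above the WT libraries, at 25.2 to 40.3 against 17.3 to 22.9 FPKM.

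Pcsk2, the convertase of alpha, beta and delta cells, was at 906, 877 and 912 FPKM in WT replicates 1, 2 and 3 and at 750.5, 582 and 626 in the KO replicates. The groups did not overlap, and KO replicate 1 lay nearest to WT. The KO mean was 653 ± 87.3 FPKM (SD, n = 3) against 898 ± 18.5 in WT, a fall of Pcsk2 to 0.727 of the WT level (log2 difference -0.47, SE 0.12, limma adjusted p = 0.024; -0.0068, SE 0.15, adjusted p = 0.97 with endocrine scaling). The call was also lost with no filter on low values (0.054) and with quantile normalization (0.072). Set alone against WT, KO replicate 1, whose summed acinar level was below that of every WT library, had a log2 difference of -0.26 (adjusted p = 0.0499, on the assumption that a lone library varies as the WT libraries do). The call of Pcsk2 was lost without WT replicate 1, 2 or 3 (adjusted p of 0.092, 0.069 and 0.094) and without KO replicate 2 (0.068), while the log2 difference in these 4 fits stayed between -0.48 and -0.39. GENCODE places exons of the antisense genes Pcsk2os1 and Pcsk2os2 over exons of Pcsk2, and without a stated strand setting their reads cannot be told apart from those of Pcsk2.

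Pcsk1, the convertase that starts proinsulin cleavage in beta cells, was at 183, 176 and 183 FPKM in the WT replicates and at 158, 123 and 138 in KO. No KO library reached the lowest WT library. The mean fell by a log2 difference of -0.38 (SE 0.10, adjusted p = 0.021 in limma), to 139.7 ± 17.2 FPKM, and was at 0.08 with endocrine scaling, not called. In KO replicate 1 alone the log2 difference was -0.20 (adjusted p = 0.061). The call was lost without WT replicate 1 (0.078), WT replicate 2 (0.053) or WT replicate 3 (0.076).

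Pcsk1n, the inhibitor of Pcsk1, was at 494, 522 and 491 FPKM in WT and at 437, 338 and 298 in KO. Here KO replicate 3 was the lowest library, unlike the other genes that fell, for which KO replicate 2 was. Its mean in KO was 358 ± 71.4 FPKM, so that Pcsk1n fell by a log2 difference of -0.51 (SE 0.14, adjusted p = 0.030 in limma), the most negative difference of the 10 genes. It was -0.0459 with endocrine scaling (adjusted p = 0.78, not called) and -0.25 with the acinar covariate (0.042). The call was also lost with no filter on low values (0.054), quantile normalization (0.051) and equal sums outside the acinar markers (0.058). KO replicate 1 alone had a log2 difference of -0.20 (adjusted p = 0.088). The call was lost without any of WT replicates 1, 2 and 3 (0.090, 0.092 and 0.087) and without KO replicate 2 or 3 (0.083 and 0.058). The gene Eras on the opposite strand overlaps an exon of Pcsk1n and reached at most 0.0764 FPKM.

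Cpe, the carboxypeptidase that trims the cut ends, was at 2389.5, 2325 and 2368 FPKM in WT and at 2398, 1866 and 1898 in KO. KO replicate 1 lay above all WT libraries and the other KO libraries lay below them, so the groups overlapped. Cpe was not called (2361 ± 32.7 to 2054 ± 298 FPKM; log2 difference -0.21, 95% interval -0.62 to 0.20, limma adjusted p = 0.35). Without KO replicate 1 it was called lower (-0.33, adjusted p = 0.042).

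Among the granins, Vgf was the only gene with a positive log2 difference over all 6 libraries. With endocrine scaling all granins were above 0, but the median of all tested genes was then 0.40, and only Vgf among them lay above it. Vgf was at 22.9, 19.3 and 17.3 FPKM in WT and at 40.3, 33.2 and 25.2 in KO. Every KO library was above the highest WT library, with the largest rise in KO replicate 1. Vgf rose from 19.8 ± 2.85 to 32.9 ± 7.55 FPKM, a ratio of means of 1.66 (log2 difference 0.69, SE 0.17, adjusted p = 0.020 in limma). KO replicate 1 alone had a log2 difference of 0.997 (adjusted p = 0.0069). A fit with the mean acinar level gave 0.96 (adjusted p = 0.0066), and one with equal sums outside the acinar markers 0.59, not called (0.080). The call was lost without WT replicate 2 or 3 (0.063 and 0.076) and without KO replicate 2 (0.059), where the log2 difference was 0.60 to 0.67.

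Chgb, a granin that binds calcium in the granule, was at 472, 458 and 492 FPKM in WT and at 436, 330.3 and 341 in KO, with no overlap. The mean of Chgb fell to 0.778 of the WT level, at 369 ± 58.5 FPKM (log2 difference -0.37, SE 0.12, limma adjusted p = 0.048; 0.09 with endocrine scaling, not called). This call was the closest of the 5 to the threshold. It was lost without WT replicate 1, 2 or 3 (adjusted p of 0.13, 0.10 and 0.15) and without KO replicate 2 or 3 (0.13 and 0.11). The same held with no filter on low values (0.079), quantile normalization (0.065), equal sums outside the acinar markers (0.076) and the acinar covariate (0.15). In KO replicate 1 alone the log2 difference was -0.12 (adjusted p = 0.26).

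The remaining granins did not pass the test. Chga was at 7014, 6353 and 7123 FPKM in WT and at 6751, 4958 and 5317 in KO, and KO replicate 1 lay among the WT libraries. Its log2 difference was -0.28 with a wide 95% interval of -0.94 to 0.38 (limma adjusted p = 0.44). Scg2, precursor of the peptide secretoneurin, was at 2560.3, 2483 and 2561 FPKM in WT and at 2349, 1831 and 2082 in KO. Its groups did not overlap, but the log2 difference of -0.29 had a 95% interval of -0.69 to 0.12 (adjusted p = 0.21). Scg5, the chaperone of Pcsk2, was at 647, 652 and 639.7 FPKM in WT and at 629.7, 462 and 495 in KO, below WT in each library by very unequal amounts (log2 difference -0.30, 95% interval -0.61 to 0.01, adjusted p = 0.11). Scg3, which anchors Chga to the granule membrane, was at 656, 635 and 676 FPKM in WT and at 701, 535 and 568 in KO (log2 difference -0.13, 95% interval -0.43 to 0.16, adjusted p = 0.41). Here KO replicate 1 was above every WT library. Without KO replicate 1, Scg2, Scg5 and Scg3 were called lower (adjusted p of 0.038, 0.0048 and 0.039), and Chga was not (0.076).

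The exact two-sided permutation test of single genes cannot go below p = 0.1 with 3 libraries against 3, and each of the 7 genes with groups that did not overlap had this value. The 3 KO libraries differed among themselves. In KO replicate 1 the 9 genes other than Vgf lay between -0.26 and 0.10 log2 units of the WT mean, in KO replicate 2 between -0.62 and -0.29, and in KO replicate 3 between -0.75 and -0.21. All 10 genes were highest in KO replicate 1 among the KO libraries, and 8 were lowest in KO replicate 2. Set alone against WT, KO replicate 1 had 1 gene called lower, Pcsk2, and 1 called higher, Vgf, where 10.9% and 15.2% of all tested genes were called. Without KO replicate 1, 8 genes were called lower and 1 higher, against 24.3% and 24.8% of all tested genes. The acinar level also set KO replicates 2 and 3 apart from KO replicate 1, as given above for the 27 markers. This level was highest in KO replicate 3, and its part in the shift was not tested. With the acinar level as a covariate, where 10.4% of all tested genes were called lower and 13.8% higher, Pcsk2 (-0.32, adjusted p = 0.046) and Pcsk1n (-0.25, 0.042) were lower, while Pcsk1 (-0.26, 0.086) and Chgb (-0.19, 0.15) were not called. KO replicate 1 is the only KO library whose acinar level was not far above WT.

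**Figure D2:**
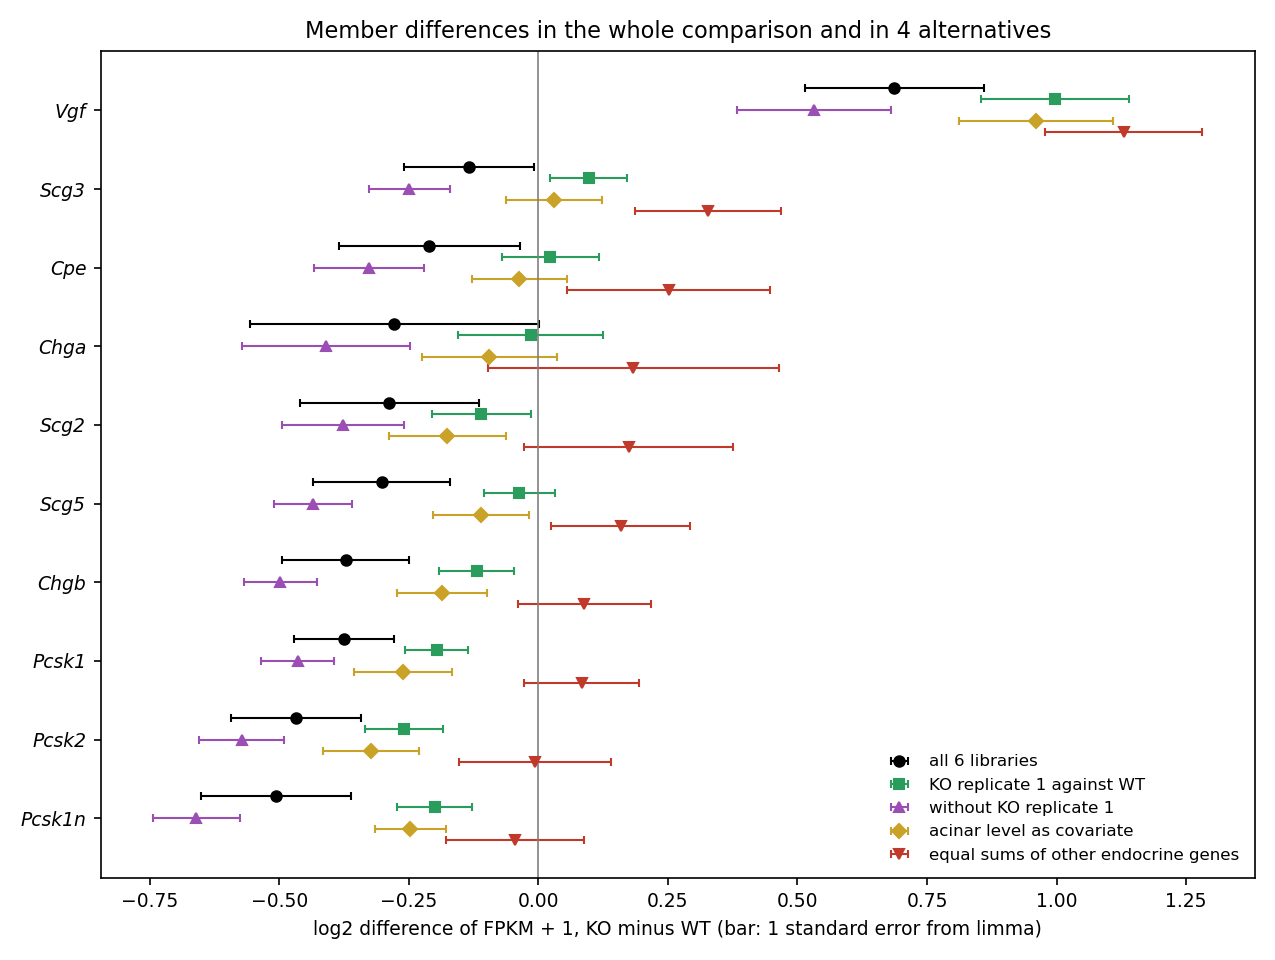
Log2 differences of FPKM + 1 between KO and WT for each gene, with 1 standard error from limma, over all 6 libraries, for KO replicate 1 against WT, without KO replicate 1, with the acinar level as a covariate and after scaling to equal sums of other endocrine genes. Vgf is above 0 in all 5, between 0.53 and 1.13, and after endocrine scaling Pcsk2 and Pcsk1n lie within 1 standard error of 0 and Pcsk1 and Chgb at 0.08 and 0.09, while these 4 genes are below 0 in the other fits.

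Marker levels of other cell types also moved between the libraries, and 19.6% of all tested genes were called lower and 20.3% higher. Of 9 tested alpha cell markers, 4 were lower and 0 higher (8 lower and 0 higher at an unadjusted p under 0.05 in limma). Their summed level was 20343 to 24526 FPKM in WT and 14025, 9619 and 7562 in KO, in replicate order. Of 4 tested delta cell markers 1 was lower, with a summed level of 5098 to 5376 FPKM in WT and 4641, 2739 and 2583 in KO. Of 11 tested beta cell markers 5 were lower and 0 higher (6 and 1 at an unadjusted p under 0.05 in limma, the 1 being Ins1, which is listed at 0 in 4 libraries), with a median log2 difference of -0.24. Granins are also made by neurons, and 4 of 6 tested neural and Schwann cell markers were lower, with a summed level of 109 to 138 FPKM in WT and 72.5, 63.2 and 72.7 in KO. Of 7 tested duct cell markers 1, Krt19, was higher (4 unadjusted), with a summed level of 449 to 476 FPKM in WT and 473, 589 and 691 in KO. Of 10 tested immune cell markers 0 were called (4 higher and 2 lower at an unadjusted p under 0.05 in limma), with a summed level of 28.9 to 33.5 FPKM in WT and 85.5, 199.5 and 29.7 in KO, so KO replicate 1 was above WT here. The part of these shifts in the results for granins and convertases was not tested. When the libraries were scaled to equal sums of 39 other endocrine genes, a sum in which glucagon, Iapp and Ppy take the largest part, the median of all tested genes went from -0.01 to 0.40, and 1.77% of them were called lower and 51.7% higher, against 0 and 1 of the 10 genes (0 and 2 at an unadjusted p under 0.05 in limma). On that scale Pcsk1 and Chgb changed sign (0.08 and 0.09), Pcsk2 was at -0.01, Pcsk1n at -0.05 and Vgf at 1.13 (adjusted p = 0.0017). Relative to the median of all genes they lay at -0.31, -0.31, -0.40, -0.44 and 0.73.

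Ratios between 2 genes within a library do not depend on how that library was scaled. The 8 pairs compared were chosen by function, but with earlier results of these data known. Cpe relative to Pcsk2 was 2.64, 2.65 and 2.60 in WT and 3.20, 3.21 and 3.03 in KO, so carboxypeptidase transcripts per Pcsk2 transcript were higher in every KO library. The log2 difference of this ratio was 0.26, with a within-group SD of 0.03. The chaperone Scg5 relative to Pcsk2 was 0.714, 0.743 and 0.701 in WT and 0.839, 0.793 and 0.790 in KO (log2 difference 0.17, SD 0.05). Pcsk1 relative to Pcsk2 was 0.202, 0.200 and 0.201 in WT and 0.210, 0.212 and 0.221 in KO (log2 difference 0.09, SD 0.03). Thus Pcsk2 was lower against each of the 3 genes it was paired with, KO replicate 1 included. These genes had less negative log2 differences over all 6 libraries (Cpe -0.21, Scg5 -0.30, Pcsk1 -0.38) than Pcsk2 (-0.47). Pcsk1n, at -0.51, was not paired with Pcsk2. These 3 ratios share Pcsk2 as their denominator, so they are not separate observations. Summed alpha and delta cell marker levels were also lower in each KO library, as given above, and their part in these ratios was not tested.

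The inhibitor Pcsk1n relative to Pcsk1 was 2.69, 2.97 and 2.69 in WT and 2.77, 2.74 and 2.16 in KO, with overlapping groups and 1 low library, KO replicate 3. Among granins, Vgf relative to Chga was 0.00327, 0.00303 and 0.00243 in WT and 0.00597, 0.00669 and 0.00474 in KO (log2 difference 0.99, SD 0.24), about 1 doubling. Scg3 relative to Chga was 0.0935, 0.0999 and 0.0949 in WT and 0.104, 0.108 and 0.107 in KO. Chga relative to Chgb was 14.9, 13.9 and 14.5 in WT and 15.47, 15.01 and 15.61 in KO, a shift of 0.09 log2 units. Scg2 relative to Chgb overlapped, at 5.20 to 5.42 in WT and 5.38 to 6.11 in KO. For the 6 ratios without overlap the exact two-sided permutation p was 0.1, the smallest possible, and 0.13 after Benjamini-Hochberg adjustment over the 8 pairs. It was 0.6 for Pcsk1n over Pcsk1 and 0.3 for Scg2 over Chgb (0.6 and 0.34 adjusted). With 3 libraries against 3 this exact test cannot pass a threshold of 0.05.

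**Figure D3:**
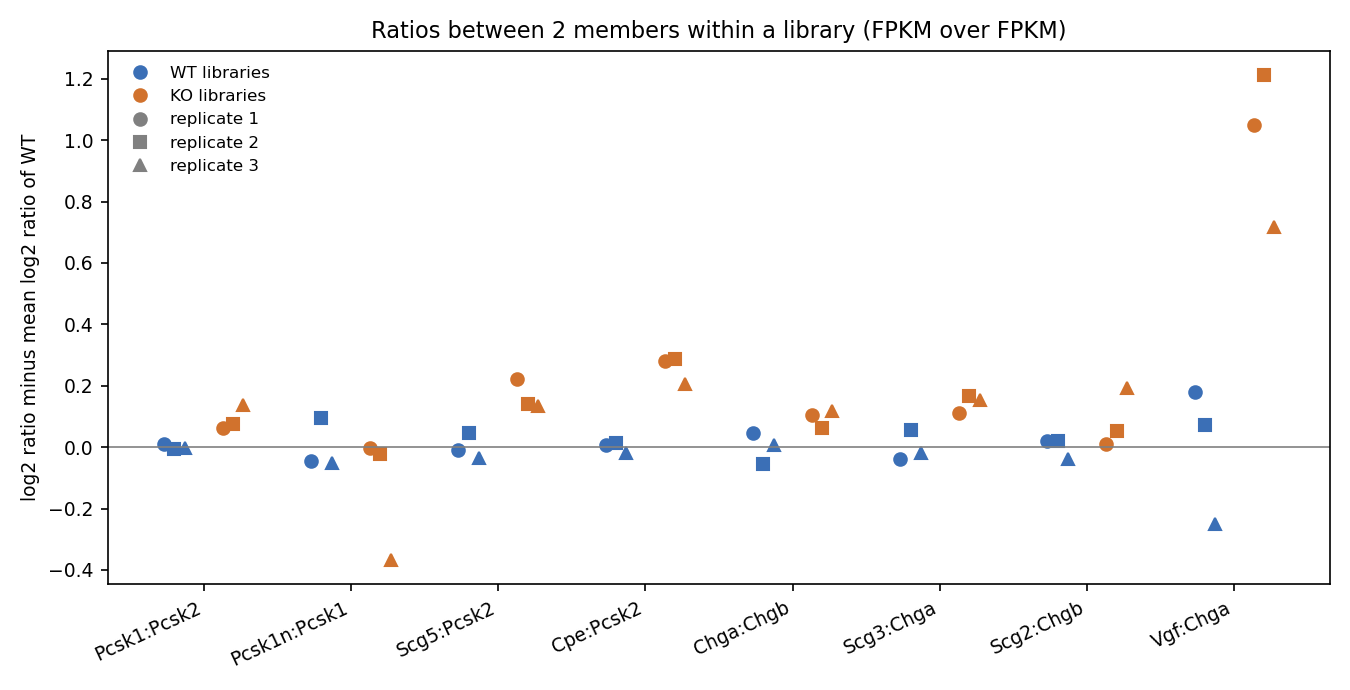
Log2 ratio of 2 genes within each library, less the mean log2 ratio of the WT libraries (blue WT, orange KO; circle, square and triangle for replicates 1, 2 and 3). The KO libraries lie above all WT libraries for 6 of the 8 pairs, by 0.99 log2 units for Vgf over Chga and by 0.09 to 0.26 for the other 5.

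Beyond these 10 genes, 5 wider lists covered other processing enzymes, granule genes and the propeptides. Of 61 tested genes 19 were called lower (31.1%) and 5 higher (8.20%), against 19.6% and 20.3% of all tested genes, with a median log2 difference of -0.18. Endocrine scaling gave 1 lower and 18 higher, against 1.77% and 51.7%. In KO replicate 1 alone 8 were lower and 5 higher, against 10.9% and 15.2% of all genes. With the acinar level as a covariate 12 were lower and 6 higher, against 10.4% and 13.8%. The count of lower genes was 12 without WT replicate 1 or WT replicate 3, where 1100 and 1110 of all 11669 tested genes were lower. It was 11 without KO replicate 2, where 1597 of all tested genes were lower. Without KO replicate 1 it was 28, with 9 higher, against 24.3% and 24.8% of all tested genes.

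Of the other proprotein convertases, Furin is described here. This enzyme, a convertase of the trans-Golgi network, cuts precursors on the constitutive route. Its gene had 20.6, 18.7 and 20.0 FPKM in the WT libraries and 23.9, 25.7 and 29.7 in those of KO. Furin was above WT in every KO library (limma log2 difference 0.40, SE 0.09, adjusted p = 0.012), and in KO replicate 1 alone by 0.27 (adjusted p = 0.048).

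Of 7 tested enzymes that trim or amidate peptide ends, 2 rose and 2 fell, which is near the shares of all tested genes (20.3% and 19.6%). Cpd, the carboxypeptidase D of the trans-Golgi network and a relative of Cpe, was at 16.8, 17.3 and 16.5 FPKM in WT and 24.1, 24.3 and 27.3 in the KO replicates, a rise of 0.55 log2 units (SE 0.06, limma adjusted p = 0.0015). In KO replicate 1 alone it was higher by 0.49 (adjusted p = 0.0056). The protease Ctsb, cathepsin B, rose from 63.1 ± 1.28 to 79.5 ± 2.87 FPKM (0.33 log2 units, adjusted p = 0.0051; not called with equal sums outside the acinar markers, adjusted p = 0.15). Transcripts of the membrane carboxypeptidase Cpm fell from 9.87 ± 0.583 to 6.34 ± 0.813 FPKM (-0.57, adjusted p = 0.0049; -0.16, adjusted p = 0.30 with endocrine scaling) and the glutaminyl cyclase relative Qpctl from 16.5 ± 0.946 to 12.1 ± 1.22 (-0.42, adjusted p = 0.0086; 0.052 in KO replicate 1 alone, and a log2 difference of 0.0099 with endocrine scaling). With endocrine scaling the median of all tested genes was 0.40. The amidating enzyme Pam, named after its values were seen, was at 142 ± 3.26 FPKM in the WT libraries and 121 ± 15.1 in those of KO. It was not called (-0.23, limma adjusted p = 0.082).

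Of the granule membrane and lumen genes 9 of 15 were called lower and 0 higher (9 and 0 at an unadjusted p under 0.05 in limma), against 19.6% and 20.3% of all tested genes, with a median of -0.23. Endocrine scaling gave 0 lower and 3 higher, against 1.77% and 51.7% of all tested genes. The acinar covariate gave 4 lower, against 10.4% of all tested genes. Equal sums outside the acinar markers gave 5 lower, against 1800 of all 11669 tested genes. In KO replicate 1 alone 3 were lower, and there were 4 without WT replicate 1 or 3 and likewise without KO replicate 2. The Rab effector Rph3al was at 50.4, 51.9 and 54.4 FPKM in WT and 42.3, 35.8 and 36.3 in the KO replicates (-0.45 log2 units, adjusted p = 0.0056). Rab37, a Rab protein of secretory granules, fell from 73.1 ± 3.34 to 49.8 ± 6.19 FPKM (-0.55, adjusted p = 0.0059) and the calcium sensor gene Syt7 from 45.0 ± 1.89 to 36.2 ± 1.41 (-0.31, adjusted p = 0.0074). After endocrine scaling Rph3al was at 0.0046, Rab37 at -0.0977 and Syt7 at 0.14, and none of these was called. The median of all tested genes was then 0.40. The zinc transporter gene Slc30a8, named after its values were seen, was at 488 ± 9.61 FPKM in the WT libraries and 488 ± 52.4 in those of KO (-0.0041 log2 units, adjusted p = 0.98).

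Of 19 tested genes of granule biogenesis and sorting, 5 fell and 1 rose, and the lower share is near that of all tested genes (19.6% lower, 20.3% higher). Endocrine scaling gave 0 lower and 5 higher, against 1.77% and 51.7% of all tested genes. The acinar covariate gave 2 lower, against 10.4%. There were 2 lower without WT replicate 1 or KO replicate 2, where 1100 and 1597 of all 11669 tested genes were lower. There were 3 without WT replicate 2 or 3, where 1494 and 1110 of all tested genes were lower. The adaptor subunit gene Ap3b1 went from 16.0 ± 0.410 down to 12.4 ± 0.822 FPKM (-0.34 log2 units, adjusted p = 0.0068), and Baiap3, which acts in dense-core vesicle maturation, from 41.9 ± 2.05 to 31.7 ± 2.97 (-0.40, adjusted p = 0.0087). The SNARE gene Vti1a fell from 6.34 ± 0.491 to 5.01 ± 0.380 FPKM (-0.29, adjusted p = 0.029). Its call was lost without WT replicate 1 or 2 (0.11 and 0.097) and without KO replicate 2 (0.078). Another SNARE gene of the trans-Golgi network, Stx6, rose from 20.5 ± 0.958 to 24.8 ± 1.24 FPKM (0.26, adjusted p = 0.015). Its call was lost without WT replicate 1 (0.068) or WT replicate 3 (0.060), and with equal sums outside the acinar markers (0.29). All adjusted p here are from limma. After endocrine scaling Ap3b1, Baiap3 and Vti1a changed sign (0.09, 0.05 and 0.11, none called), where the median of all tested genes was 0.40.

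Among the propeptides that these enzymes process, 3 of 14 tested fell and 0 rose (8 lower and 2 higher at an unadjusted p under 0.05 in limma), a lower share near the 19.6% of all tested genes. The 2 are Gal and Ins1, and Ins1 is listed at 0 in 4 libraries. Endocrine scaling gave 1 lower and 3 higher, against 1.77% and 51.7% of all tested genes, whose median log2 difference was then 0.40. Ucn3, a peptide gene of mature beta cells, was at 326, 328 and 364 FPKM in WT and 221, 164 and 181 in the KO replicates (-0.86 log2 units, adjusted p = 0.0028). Npy fell from 13.7 ± 2.99 to 7.42 ± 1.14 FPKM (-0.79, adjusted p = 0.010) and Pomc, a classical substrate of Pcsk1 in the pituitary, from 6.06 ± 0.433 to 3.65 ± 0.811 (-0.61, adjusted p = 0.010; 0.055 in KO replicate 1 alone). With endocrine scaling Ucn3 was called (-0.40, adjusted p = 0.027), and Npy (-0.37, 0.12) and Pomc (-0.24, 0.12) were not. Glucagon (Gcg), the product of Pcsk2 cleavage in alpha cells, named after its values were seen, was at 18617, 22807 and 19486 FPKM in WT and 12436, 8534 and 6474 in KO. It was not called (-1.20 log2 units, adjusted p = 0.07). Its KO libraries were all below WT, in the order 1, 2, 3. The summed acinar level rose in that order, and in KO replicate 1 it was below every WT library. The part of the acinar level in the values of glucagon was not tested. Galanin (Gal), also named after its values were seen, was at 5.79, 2.77 and 4.46 FPKM in WT. KO replicate 1 had 5.11 FPKM, but KO replicates 2 and 3 had 61.3 and 127, the libraries with high acinar transcripts (limma adjusted p = 0.062). The part of the acinar level here was not tested either.

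**Figure D4:**
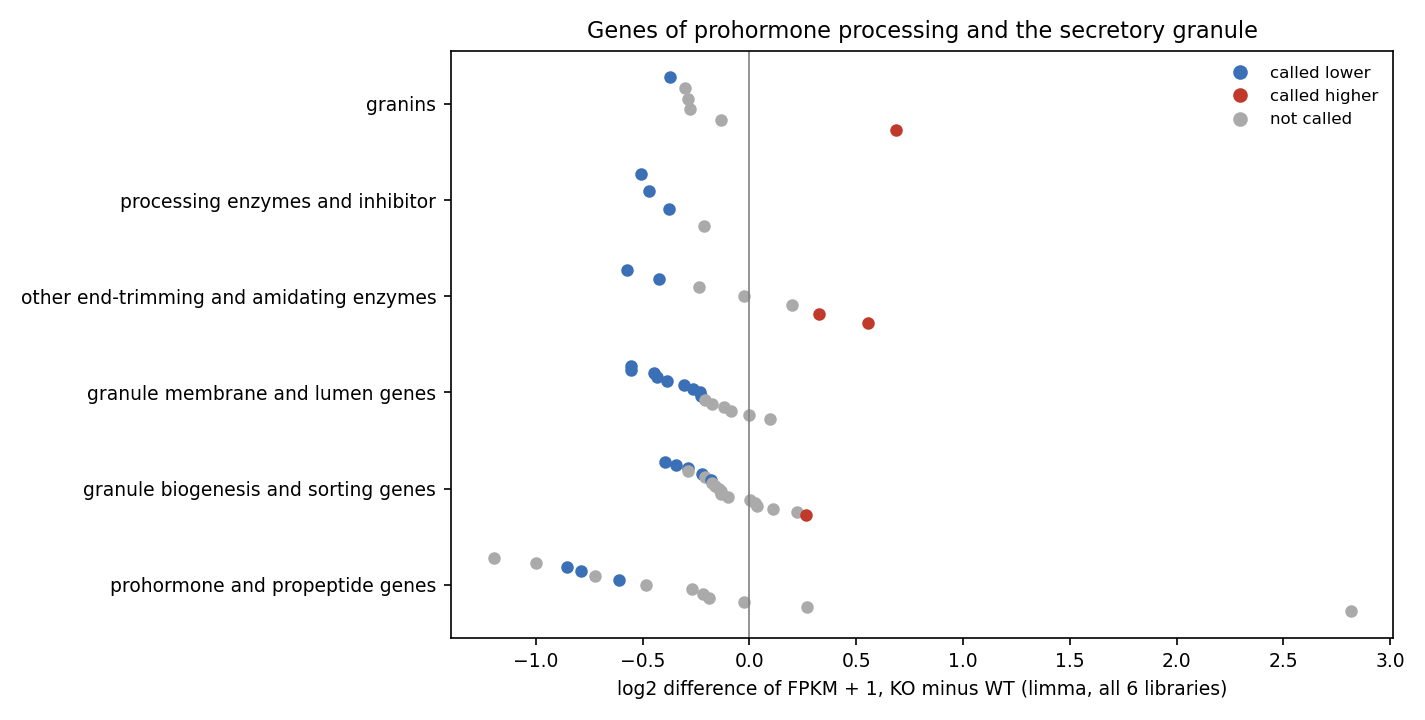
Log2 differences of FPKM + 1 between KO and WT for each tested gene of the lists, by limma over all 6 libraries (blue called lower, red called higher, grey not called; Ins1 and the other proprotein convertases are not drawn). Of the granule membrane and lumen genes 9 of 15 are called lower and 0 higher.

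The genes outside the set with the most similar course over the 6 libraries were sought among the 5510 tested genes whose mean was 10 FPKM or more. The measure was the root mean square difference in log2(FPKM + 1), each gene less its own mean, from the median course of the 10 genes. The closest was the tetraspanin gene Tspan3 (0.02 log2 units), at 141, 137 and 139 FPKM in WT and 129, 100.4 and 107 in KO. Fam195b, Emb, Cdh8 and Parp6 followed (0.02 to 0.03 log2 units each). Within the set Scg5 was nearest to the median course (0.03), with Scg2, Chga and Chgb at 0.04. Pcsk1n (0.14) and Vgf (0.53) were the farthest, and 5141 of the 5510 genes were closer to the median course than Vgf.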

How the data were processed

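Per the submitters' processing notes, the authors aligned and quantified reads with TopHat2 2.0.8b and Cuffdiff 2.1.1 on build mm10. Annotation, strand setting, bias correction and scaling: not given in the sources used here. FPKM is the unit assumed for the deposited values, since they are decimals with unequal sums and Cuffdiff writes that unit; the files name none. Sample titles gave group and replicate number; the labels call the replicates biological. Of 23179 rows, 5445 were at 0 throughout, and 158 symbols on several rows were kept apart. Depth is unknown, so no counting interval is given.

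Genes whose mean over the 6 libraries was 1 FPKM or more were tested on log2(FPKM + 1), a scale that understates changes of low values, with limma 3.58.1 in R 4.3.3 (group as the only term, trended prior, 4 residual degrees of freedom, two-sided). P-values were adjusted over all 11669 genes at 0.05. The method was tested on simulated data. The genes, lists, pairs and alternatives were chosen with earlier results of these data known. The named genes were the 10 genes, per wider list the called gene of smallest p in each direction and up to 2 more, Ffar3 and the 5 of most similar course; others are said to be named after their values were seen. A further gene under this rule is not reported here. List symbols missing from the tables were matched through RefSeq synonyms; 1 of 20 biogenesis genes was not matched. Exon overlaps were read from GENCODE M21 (GRCm38, the same assembly as mm10), and sequences from RefSeq on GRCm38.p6. Ratios used plain FPKM and an exact permutation test. Alternatives were a pseudocount of 0.1, a filter of 5 FPKM or none, 4 other scalings, a robust prior, array weights, an acinar covariate, a replicate block, each library left out and KO replicate 1 alone; equal sums outside acinar and insulin genes was added after seeing the data. Other tools were Python 3.11.15, pandas 2.3.3 and matplotlib 3.10.9.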

Additional observations from a re-analysis of the deposited data

How the results depend on the processing

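Of 19 alternatives, Vgf was called higher in 15, with a log2 difference above 0 in all. The lower calls were kept in 13 for Pcsk1, 12 for Pcsk2, 8 for Pcsk1n and 6 for Chgb. Endocrine scaling left no difference from 0 that passed the test for these 4 genes (-0.0068 for Pcsk2 and -0.0459 for Pcsk1n, within 1 standard error of 0). The sum used for that scaling was itself lower in every KO library (49448.2 to 65102.1 FPKM, against 73881.5 to 79017.3 in WT). This raised KO values against WT, and the median of all tested genes was then 0.40. Of the 10 genes, 4 were called lower; this became 1 with no filter on low values, with quantile normalization and for KO replicate 1 alone, 2 with equal sums outside acinar markers (with or without insulin genes) and with the acinar covariate, and 0 (0 also at an unadjusted p under 0.05 in limma) with equal sums of other endocrine genes. Leaving out 1 library gave 0 to 8 lower, with 0 without WT replicate 1, 2 or 3 (3, 4 and 3 at an unadjusted p under 0.05 in limma) and 8 without KO replicate 1, and 0 to 1 higher. Equal sums outside acinar markers gave 0 higher (1 unadjusted). Over all genes, lower calls were 2289, but 207 with endocrine scaling, 1208 with the covariate, 1267 for KO replicate 1 alone and 1100 to 2837 leaving out 1 library. Higher calls were 2368, but 1226 with equal sums outside acinar markers, 6028 with endocrine scaling and 1381 to 2890 leaving out 1 library. In the wider lists 19 genes were lower, but 1 with endocrine scaling, 12 with the covariate, 8 for KO replicate 1 alone and 11 to 28 leaving out 1 library; 5 were higher, but 3 with equal sums outside acinar markers, 18 with endocrine scaling, 8 with array weights and 4 to 9 leaving out 1 library. With endocrine scaling Chgb (0.0889), Pcsk1 (0.0835), Qpctl (0.0099), Rph3al (0.0046), Syt7 (0.14), Ap3b1 (0.0888), Baiap3 (0.0527) and Vti1a (0.11) changed sign. The cause of these shifts was not tested. Leaving out 1 library moved the log2 ratio of Cpe to Pcsk2 between 0.24 and 0.28 and that of Vgf to Chga between 0.87 and 1.13.

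The replicate numbers did not pair the libraries: same-numbered WT and KO libraries had correlations of deviations from their group means, across genes, of -0.21, -0.09 and 0.03. With the replicate block 1877 genes were called lower and 1988 higher, and 3 of the 10 genes were lower and 1 higher, Chgb being at an adjusted p of 0.068. Unknown depth limits the low genes most, Vgf among the 10.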
